A study of Mus musculus with 12 samples.

Results

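Tuft cells are a rare chemosensory cell type of the gut epithelium, and the mRNA of 10 genes that mark them (Dclk1, Trpm5, Il25, Pou2f3, Gfi1b, Alox5, Ptgs1, Hpgds, Sucnr1 and Gnat3) was followed here in crypt tissue of APCMin/+ mice with and without a gene-trapped copy of Zfp148. A gene was taken where the array annotation gave its symbol alone to a transcript cluster, the probe group that yields 1 value per array, and where a gene had several, the one brightest across the 12 arrays was used. By this rule 9 of the 10 genes were measured, out of 22180 named genes on the array. Ptgs1 was not analysed here.

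The study compared 6 Zfp148gt/+APCMin/+ mice (hereafter Zfp148gt/+ mice) with 6 Zfp148+/+APCMin/+ mice (hereafter APCMin/+ controls), all 12 weeks old by the study's text and on a mixed genetic background. The gt allele carries a gene trap in Zfp148, a zinc finger transcription factor, and both groups carry APCMin, a truncating mutation of Apc that gives rise to intestinal adenomas. The trapped allele is carried by all cells of the mouse, and the design does not single out a cell type. Crypt-enriched tissue was cut by laser microdissection from the proximal small intestine, and RNA of each mouse was hybridised to 1 Affymetrix Gene 2.0 ST array.

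A tuft cell senses luminal metabolites and tastants through G protein-coupled receptors, whose signal runs through a taste-type G protein and phospholipase C to the cation channel Trpm5. On activation the cell releases Il25, which drives group 2 innate lymphoid cells to make Il13, and Il13 acts back on crypt progenitors to raise the output of tuft and goblet cells. The lineage depends on the transcription factor Pou2f3, and the cells also hold the enzymes that make prostaglandins and leukotrienes.

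Log2 signal (RMA) was compared between genotypes with limma over all 33793 clusters with Benjamini-Hochberg adjustment. An adjusted p under 0.05 was called. As a mark of array background, the limit used was the 95th percentile of 1405 odorant and vomeronasal receptor clusters, which lay at a log2 signal of 2.74. These genes are mostly not thought to be active in crypts. Vmn2r26 (mean log2 signal 1.96), which is also on the list of further tuft cell genes below, was not left out of them. Zfp148 itself, the targeted gene, was lower in every Zfp148gt/+ mouse (5.01 to 5.95) than in every control (6.06 to 6.88), at 0.542 of the control level (exact permutation p = 0.0022, the smallest this design allows; limma adjusted p = 0.676). The median signal per array was 2.64 to 2.78, and the median correlation of an array with the others was 0.968 to 0.978. The receptor limit taken within each array was 2.65 to 2.84 in controls and 2.80 to 2.99 in Zfp148gt/+ mice. A higher mean in Zfp148gt/+ mice was found for 18529 of all 33793 clusters but for only 6901 of the 16674 above the common limit. A higher mean was thus the more common direction below that limit. Of crypt genes, the stem cell gene Olfm4 had a mean log2 signal of 10.8 and the replication factor Pcna one of 9.50. Defining genes of other epithelial cells were bright as well, namely Lyz1 and Defa24 of Paneth cells, Agr2 and Tff3 of goblet cells, Fabp2 and Sis of villus enterocytes and Gcg and Chgb of enteroendocrine cells. Of the genes on the crypt and enteroendocrine lists, Smoc2 was higher by 0.44 on the log2 scale and Pcsk1 differed by -0.64 at an unadjusted limma p under 0.05 (adjusted p = 0.725 each), and none on the Paneth, goblet or villus list was under it.

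The 300 bases around the start of each gene give the sequence context of the tuft cell genes on the mouse build GRCm38.p6, as listed by RefSeq. Of the 10 genes 8 had such a promoter entry, with 9 promoters among them. Il25 and Pou2f3 had none. The octamer ATGCAAAT, the element that POU factors such as Pou2f3 bind, was searched on both strands. It was present in 570 of 32817 mouse promoters of this length (1.74%) and in 2 of the 9, those of the succinate receptor Sucnr1 (chr3:60081619-60081918, + strand) and the prostaglandin D2 synthase Hpgds (chr6:65144681-65144980, - strand). Both are printed 5′ to 3′ because they hold the element of the lineage factor, with the octamer in capitals.
Sucnr1: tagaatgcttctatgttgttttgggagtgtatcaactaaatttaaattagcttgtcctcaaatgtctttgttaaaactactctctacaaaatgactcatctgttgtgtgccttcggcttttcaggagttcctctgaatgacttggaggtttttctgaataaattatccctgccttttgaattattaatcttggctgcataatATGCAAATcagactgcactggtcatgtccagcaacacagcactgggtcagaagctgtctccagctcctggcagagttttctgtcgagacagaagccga
Hpgds: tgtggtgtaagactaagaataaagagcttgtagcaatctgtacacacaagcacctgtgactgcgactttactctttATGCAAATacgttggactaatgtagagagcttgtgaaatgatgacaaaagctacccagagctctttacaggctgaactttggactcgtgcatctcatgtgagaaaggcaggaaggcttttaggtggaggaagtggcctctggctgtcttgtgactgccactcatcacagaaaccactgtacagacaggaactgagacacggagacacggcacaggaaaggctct
The octamer begins at position -48 from the start in Sucnr1 and at -174 in Hpgds. A match of letters is a description of the sequence and not a measured binding site.

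The GC box GGGCGG was searched in the same way, since Zfp148 is known to bind GC-rich elements. It was present in 11693 promoters (35.6%) and in 2 of the 9, those of the transcription factor Gfi1b (chr2:28621933-28622232, - strand) and the lipoxygenase Alox5 (chr6:116461129-116461428, - strand). These are shown with the GC box in capitals.
Gfi1b: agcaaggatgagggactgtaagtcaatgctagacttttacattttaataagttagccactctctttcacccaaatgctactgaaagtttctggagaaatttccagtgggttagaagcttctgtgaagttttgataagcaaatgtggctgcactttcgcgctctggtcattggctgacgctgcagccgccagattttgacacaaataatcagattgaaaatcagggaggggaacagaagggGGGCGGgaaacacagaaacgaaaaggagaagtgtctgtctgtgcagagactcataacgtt
Alox5: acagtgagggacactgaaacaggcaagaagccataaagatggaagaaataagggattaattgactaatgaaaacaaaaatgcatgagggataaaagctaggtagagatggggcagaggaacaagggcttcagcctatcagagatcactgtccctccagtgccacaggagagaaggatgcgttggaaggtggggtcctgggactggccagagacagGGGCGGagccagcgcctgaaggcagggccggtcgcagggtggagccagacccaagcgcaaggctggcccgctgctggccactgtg
It begins at position -10 in Gfi1b and at -35 in Alox5. No promoter among the 9 held both motifs, so the motifs do not overlap in them.

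None of the 9 tuft cell genes was called as different between Zfp148gt/+ mice and APCMin/+ controls, and the 2 groups overlapped for each of them. On the array as a whole 0.0% of the clusters were called (0 of 33793), so the tuft cell genes shared this with all others, and the groups did not overlap for 0.308% of the clusters (0.225% higher and 0.0829% lower in Zfp148gt/+ mice). At an unadjusted limma p under 0.05 the count was 0 of 9 tuft cell genes against 6.76% of all clusters (2284). The mean was higher in Zfp148gt/+ mice for 4 of the genes (Trpm5, Il25, Gfi1b and Sucnr1) and lower for 5 (Pou2f3, Alox5, Dclk1, Hpgds and Gnat3), beside 54.8% of all clusters with a higher mean. The median of the 9 log2 fold changes was -0.01, and that of all clusters was 0.02. In bulk tissue fewer tuft cells and less RNA per tuft cell cannot be told apart. Averaged over the 12 arrays, Trpm5, Il25, Pou2f3, Gfi1b and Alox5 lay above the receptor limit, whereas Dclk1, Hpgds, Sucnr1 and Gnat3 lay below it. For the latter 4 a difference is between signals near array background, and it is given on the log2 scale without a ratio. Of the 5 genes above the limit Trpm5, Il25 and Gfi1b had a higher mean, beside 6901 of the 16674 clusters there. Below the limit, where a higher mean was the more common direction, Sucnr1 was higher and Dclk1, Hpgds and Gnat3 were lower.

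**Figure D1:**
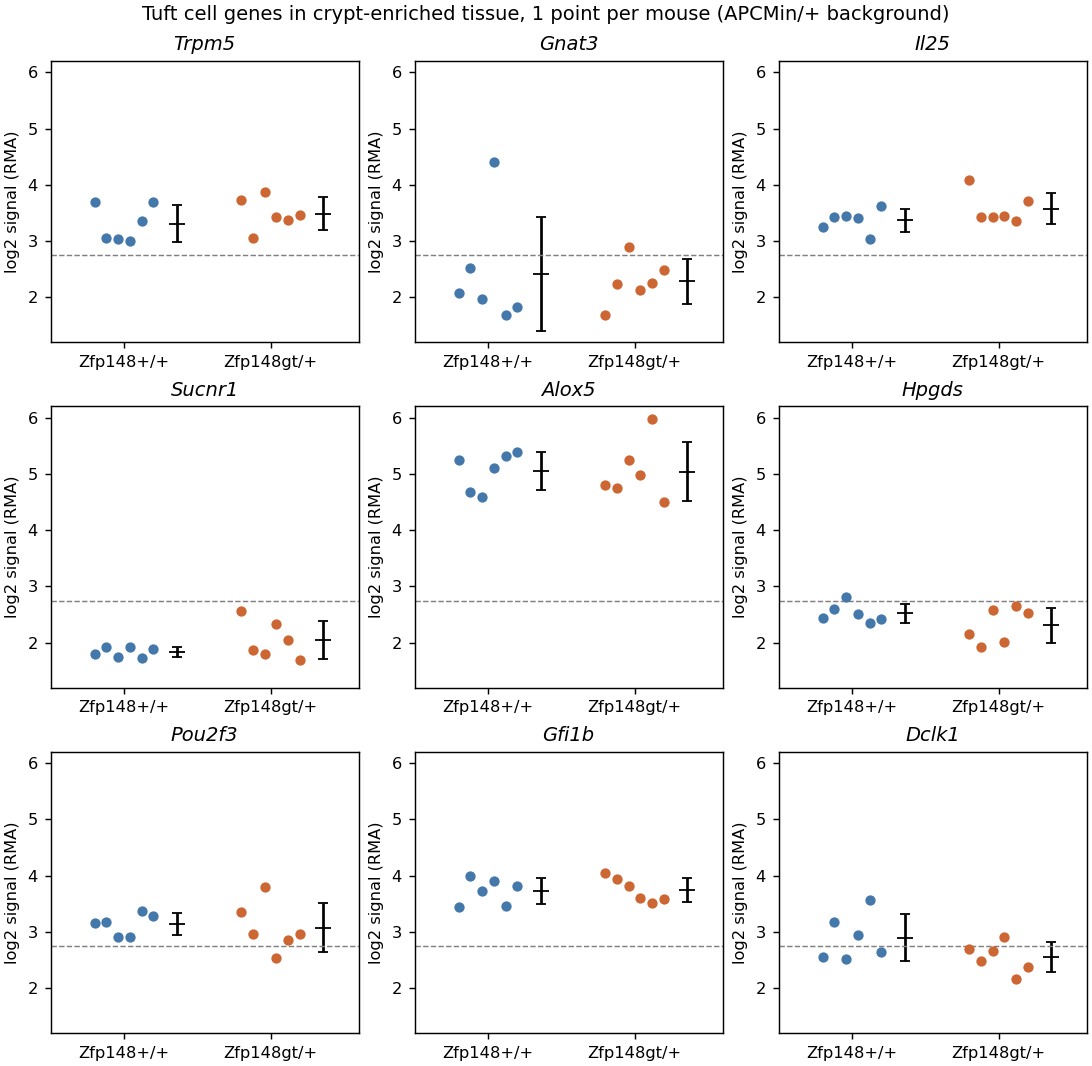
Log2 signal (RMA) of the 9 tuft cell genes in crypt-enriched tissue, with 1 point per mouse for 6 controls (Zfp148+/+, blue) and 6 Zfp148gt/+ mice (orange), the mean with its SD beside them, and the receptor limit of 2.74 as a dashed line. The groups overlap in every panel, and the single high Gnat3 value of 4.40 belongs to control mouse 889.

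Among the genes of taste-type signalling, Trpm5, the calcium-activated channel that depolarises the tuft cell, was measured above the receptor limit in 12 of 12 arrays. The lowest, median and highest log2 signals were 2.995, 3.20 and 3.70 in controls and 3.05, 3.45 and 3.87 in Zfp148gt/+ mice. Controls 782 and 899 and Zfp148gt/+ mice 783 and 892 formed the upper end, so that both genotypes held high and low mice. The means were 3.30 ± 0.33 (SD, n = 6) in controls and 3.49 ± 0.29 in Zfp148gt/+ mice, a log2 fold change of 0.18 with a 95% confidence interval from -0.18 to 0.54. This equals 1.13 times the control level (0.883 to 1.46), and it was within the spread between mice (limma adjusted p = 0.834).

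Gnat3, the alpha subunit of the taste G protein gustducin, was at background level in all but 1 mouse. Control mouse 889 had a log2 signal of 4.40, while the other 5 controls had 1.69 to 2.52 and the Zfp148gt/+ mice 1.69 to 2.90. In that mouse only 11 of the 1405 receptor clusters were brighter than Gnat3, and in each of the other 11 mice 74 or more were. With all mice the difference was -0.13 (-0.98 to 0.72, limma adjusted p = 0.959), and without control mouse 889 its sign turned, to 0.27. Mouse 889 was not the highest for any other of the 9 genes, and it was the lowest for Trpm5.

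Il25, the cytokine through which tuft cells call on type 2 immunity, lay above the receptor limit in 12 of 12 arrays. For this cytokine the lowest, median and highest signals were 3.03, 3.43 and 3.63 in controls and 3.35, 3.44 and 4.09 in Zfp148gt/+ mice. The highest value was that of mouse 783, and the medians of the groups were nearly equal. The means were 3.37 ± 0.21 and 3.58 ± 0.28 (SD, n = 6 each), or 1.16 times the control level (0.940 to 1.42). On the log2 scale the difference was 0.21 (-0.09 to 0.51) with a limma adjusted p of 0.780, and 0.11 without mouse 783.

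Sucnr1, the receptor for succinate made by protists and bacteria of the gut, was below the receptor limit in every array. The 6 controls had a lowest, median and highest signal of 1.72, 1.84 and 1.92, and the Zfp148gt/+ mice of 1.68, 1.96 and 2.57. Mice 783 and 893, both Zfp148gt/+, had the highest values at 2.57 and 2.32, and mouse 911 of the same genotype had the lowest. The difference of 0.22 (-0.08 to 0.52, limma adjusted p = 0.777) was within the spread between mice, and it was 0.12 without mouse 783. Array background, read from the receptor limit, was 2.80 to 2.99 in Zfp148gt/+ mice against 2.65 to 2.84 in controls, and the difference was 0.18 after each array was centred on its median.

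Of the lipid mediator enzymes, Alox5, the lipoxygenase that starts leukotriene synthesis, was measured well above the receptor limit in all arrays. Controls had a lowest, median and highest signal of 4.59, 5.18 and 5.39, and Zfp148gt/+ mice of 4.50, 4.89 and 5.97. The values of Zfp148gt/+ mice spanned those of the controls on both sides, with mouse 897 highest and mouse 911 lowest of all 12. The means were 5.05 ± 0.34 and 5.04 ± 0.52 (SD, n = 6 each), a difference of -0.01 (-0.51 to 0.49) with a limma adjusted p of 0.994, and as a ratio the interval ran from 0.703 to 1.40 times the control level. A further Alox5 cluster lay below the receptor limit, with a difference of -0.18 (-0.47 to 0.11, limma adjusted p = 0.799). It followed the brighter cluster only weakly over the mice (r = 0.297, on values not centred within genotype). Alox5 is also expressed by myeloid cells, and the 10 macrophage and dendritic cell genes examined (Lyz2 and Cx3cr1 the brightest) were all above the receptor limit, with a mean log2 signal per mouse of 4.68 to 5.36 in controls and 4.51 to 5.28 in Zfp148gt/+ mice. The share of the Alox5 signal that came from tuft cells was not tested.

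Hpgds, the enzyme that forms prostaglandin D2 in tuft and mast cells, exceeded the receptor limit of its own array in 1 mouse, control 888 at 2.80. Its lowest, median and highest signals were 2.35, 2.47 and 2.80 in controls and 1.93, 2.34 and 2.64 in Zfp148gt/+ mice. Mice 783, 891 and 893 of the Zfp148gt/+ group lay below all controls, and the other 3 lay among them. The difference was -0.21 (-0.52 to 0.09, limma adjusted p = 0.780). Of 12 mast cell genes 3 were above the receptor limit, Kit at a mean log2 signal of 6.76 and Mcpt1 and Mcpt2 only just, at 2.93 and 2.98. The mean of the list was 2.32 to 2.60 in controls and 2.34 to 3.04 in Zfp148gt/+ mice. Its highest value was that of mouse 783, in which the mast cell proteases Mcpt1 and Mcpt2 had signals of 5.99 and 5.53. In the other 11 mice they were at most 3.22 and 3.99. Hpgds was among its lower values in that mouse (2.16), whereas Il25, Gfi1b and Sucnr1 were at their highest there, and the part of mast cells in these values was not tested.

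Pou2f3, the POU-domain factor without which tuft cells do not form, was above the receptor limit of its array in all 6 controls and in 4 of 6 Zfp148gt/+ mice. From lowest over median to highest, the signals were 2.90, 3.17 and 3.37 in controls and 2.53, 2.96 and 3.79 in Zfp148gt/+ mice. Both the highest mouse (892) and the lowest (893) were Zfp148gt/+. The means were 3.13 ± 0.19 and 3.07 ± 0.44 (SD, n = 6 each), or 0.958 of the control level (0.730 to 1.26). The log2 difference of -0.06 (-0.45 to 0.33) had a limma adjusted p of 0.956.

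Gfi1b, a zinc finger repressor used as a tuft cell marker in the gut epithelium and best known from platelet and red cell development, was above the receptor limit in 12 of 12 arrays. In controls and Zfp148gt/+ mice alike the signals were close, with a lowest, median and highest of 3.43, 3.77 and 3.99 in controls and 3.51, 3.71 and 4.04 in Zfp148gt/+ mice. It varied least among the 9 genes, at the 43.1st percentile of the within-genotype SD of all clusters, and gave the narrowest interval. The log2 fold change was 0.03 (-0.25 to 0.30, limma adjusted p = 0.973), or 1.02 times the control level (0.841 to 1.23). Of 10 platelet and red cell genes examined 5 were measured, and 2 of them, Pf4 and Gp9, were above the receptor limit. Ppbp and Klf1 had differences of 0.33 and 0.40 at an unadjusted limma p under 0.05. Both lay below the limit, where a higher mean in Zfp148gt/+ mice was the more common direction. The mean of these 5 was 3.08 to 3.27 in controls and 3.14 to 3.58 in Zfp148gt/+ mice, and their part in the Gfi1b signal was not tested.

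Dclk1, a microtubule-associated kinase that is the most widely used tuft cell marker, had the lowest unadjusted p of the 9 genes (limma p = 0.0814, adjusted p = 0.746; exact permutation p = 0.113, two-sided). Its lowest, median and highest signals were 2.51, 2.79 and 3.56 in controls and 2.15, 2.57 and 2.91 in Zfp148gt/+ mice. Controls 895, 885 and 889 were the 3 highest mice, and only these exceeded the receptor limit of their own arrays, against 0 of 6 Zfp148gt/+ mice. At the common limit of 2.74 Zfp148gt/+ mouse 893 (2.91) lay above it too. The means were 2.90 ± 0.41 and 2.54 ± 0.27 (SD, n = 6 each), and the difference of -0.35 had an interval from -0.75 to 0.05. Without control mouse 895 it was -0.22. Dclk1 is also expressed by enteric neurons, and of 8 neuron and glia genes measured 2 (Ret and Uchl1) were above the receptor limit, with a mean of the list of 2.27 to 2.62 in controls and 2.45 to 2.68 in Zfp148gt/+ mice. Tubb3 had a difference of 0.38 at an unadjusted limma p under 0.05. It lay below the limit, where a higher mean in Zfp148gt/+ mice was the more common direction. The part of neurons in the Dclk1 signal was not tested.

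**Figure D2:**
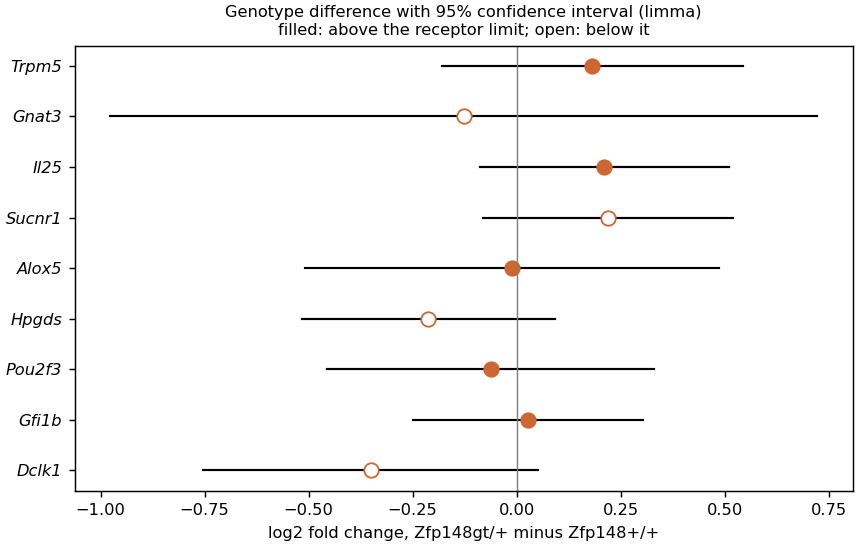
Log2 fold change of the 9 tuft cell genes, Zfp148gt/+ minus Zfp148+/+, with 95% confidence intervals from limma (6 mice per group). Filled points mark the 5 genes with a mean above the receptor limit and open points the 4 below it. All intervals include 0, with Dclk1 lowest at -0.35 and Sucnr1 highest at 0.22.

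A wider list held 61 tuft cell genes outside the 10, of which 56 were measured and 44 lay above the receptor limit. Not all of them are particular to tuft cells. Cd24a (mean log2 signal 11.6), Krt18 (10.3), Ptges3 (9.54) and Rgs2 (9.50) were far brighter than any of the 9 genes. The share of the signal of the listed genes that came from tuft cells was not tested. None was called. In Zfp148gt/+ mice 22 had a higher and 34 a lower mean, and their median difference on the log2 scale was -0.03. Among the 44 brighter genes the mean was higher for 15 and lower for 29, and their median was -0.07. Over all 16674 clusters above the limit the median was -0.04, with a higher mean for 6901 and a lower mean for 9773. At an unadjusted limma p under 0.05, 2 genes were higher and 2 lower, against 3.88% and 2.88% of all clusters, and the adjusted p of each was 0.725 or more.

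Of these 4 genes, Tslp, an epithelial cytokine that primes type 2 responses, had a lowest, median and highest signal of 2.77, 2.92 and 3.14 in controls and 2.74, 3.30 and 3.998 in Zfp148gt/+ mice (log2 fold change 0.39, 0.03 to 0.75). Tas1r3, a sweet and umami taste receptor subunit, gave 2.19, 2.56 and 2.86 against 2.55, 2.81 and 2.99 (0.26, 0.0015 to 0.51). Its mean lay below the receptor limit, where a higher mean in Zfp148gt/+ mice was the more common direction. Il4ra, the receptor chain shared by Il4 and Il13, gave 5.32, 5.64 and 6.61 against 4.95, 5.26 and 5.66 (-0.49, -0.92 to -0.05). For Tslp 5 of 6 Zfp148gt/+ mice lay above the highest control, and for Il4ra 5 of 6 lay below the control median. Ly6g6f, a cell surface protein also known from platelets, was at 2.33, 3.28 and 3.51 in controls and 2.22, 2.50 and 3.34 in Zfp148gt/+ mice (-0.50, -0.999 to -0.01). Mouse 893 alone of its genotype lay above the control median.

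By role, all 8 eicosanoid genes measured, which act with Alox5 and Hpgds in lipid mediator synthesis, had a lower mean in Zfp148gt/+ mice. These genes, like the macrophage, dendritic, fibroblast and muscle genes given below, all lay above the receptor limit. There a lower mean was the more common direction, found for 9773 of 16674 clusters. Their median difference was -0.16, and none passed the test, adjusted or not. Alox5ap, the protein that presents arachidonic acid to Alox5, had a difference of -0.47 (-1.23 to 0.30), and the prostaglandin E synthase Ptges2 one of -0.45 (-1.13 to 0.24). When the interquartile range of the arrays entered the fit, Ptges2 turned to 0.30, and Alox5ap remained negative at -0.30. Of the 10 macrophage and dendritic cell genes 9 also had a lower mean, with a median difference of -0.23. The 10 fibroblast and muscle genes, with a mean of the list of 6.25 to 7.30 in controls and 6.12 to 6.72 in Zfp148gt/+ mice, all had a lower mean, with a median of -0.44 and 4 at an unadjusted limma p under 0.05 (Col1a2 -0.85, Col3a1 -0.57, Col1a1 -0.47 and Myh11 -0.46), beside -0.37 for Dcn, which with Col1a2 was the brightest. Alox5ap, like Alox5, is a myeloid as well as a tuft cell gene, and the part of these cells in its values was not tested.

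In the other role groups the members fell on both sides of 0. Of 8 taste transduction genes 4 were higher and 4 lower (median 0.04), and only Plcb2 and Itpr3, the phospholipase and the calcium store channel upstream of Trpm5, lay above the receptor limit. Of 5 transcription factors 3 were higher (median 0.01), with Hmx3 at 0.05 and Runx1 at -0.07. Of 11 receptors and signals 5 were higher (median -0.03), and of 9 cytoskeletal and brush border genes 4 were higher (median -0.01), with the adaptor Fyb at -0.35 (-0.96 to 0.25) and the actin bundler Espn at -0.07 (-0.26 to 0.13). Of 15 kinases and adaptors 6 were higher (median -0.09).

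**Figure D3:**
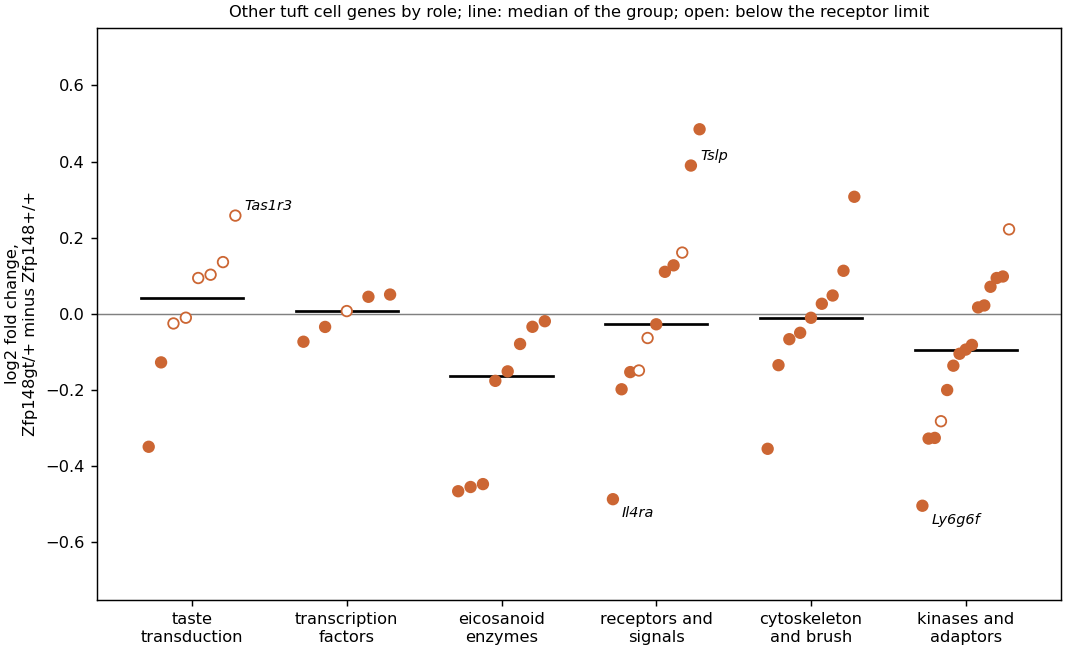
Log2 fold change, Zfp148gt/+ minus Zfp148+/+ (6 mice per group), of 56 further tuft cell genes by role, with 1 point per gene, filled above and open below the receptor limit, and the median of each group as a bar. The 4 named genes had an unadjusted limma p under 0.05 and none was called after adjustment. The eicosanoid enzymes all lie below 0, with a median of -0.16, beside a median of -0.04 over all clusters above the receptor limit.

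The circuit that tuft cells set off was also measured. Of 9 genes of type 2 immunity and its epithelial response 7 were higher and 2 lower in Zfp148gt/+ mice (median 0.06), and none was called. Only 5 of the 9 lay above the receptor limit, and the others all had a higher mean. Over all clusters 54.8% had a higher mean, and it was the more common direction below the limit. The cytokines Il4 and Il5 were below the receptor limit in every array. Il13 had a mean just below it (2.72), and it exceeded the limit of its own array in 2 controls and 2 Zfp148gt/+ mice, with the highest signals in control 899 (3.05) and Zfp148gt/+ mouse 892 (3.19). Clca1, a secreted goblet cell protein that rises under Il13, was at a mean log2 signal of 11.04 in controls and 10.62 in Zfp148gt/+ mice (-0.42, -0.87 to 0.03, limma adjusted p = 0.741). Retnlb, another goblet cell product of type 2 responses, was chosen for mention after its values were seen. It ranged from 1.98 to 9.31 over the mice, with 3 mice of both genotypes (controls 782 and 885 and Zfp148gt/+ mouse 891) at 2.49 or less and the others at 5.34 or more.

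The spread between mice of 1 genotype was wide for some tuft cell genes. Gnat3 was at the 97.4th percentile of the within-genotype SD of all clusters and Alox5 at the 86.6th, and the other 7 lay between the 43.1st and the 75.2nd. Among the further tuft cell genes, the SH2 adaptors Sh2d6 and Sh2d7, the G protein regulator Rgs13 and the leukotriene synthase Ltc4s, named after their values were seen, reached percentiles of 98.7, 98.5, 96.9 and 98.0. Sh2d7 was at 5.68 in Zfp148gt/+ mouse 892 and at 2.12 to 3.74 in the other 11 mice. Sh2d6 was highest in the same mouse at 6.35, as were Trpm5 and Pou2f3 among the 9 genes.

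Correlations among the 9 genes were of both signs. Over 12 mice, on values centred within each genotype, 20 of the 36 pairs had a positive and 16 a negative Pearson correlation, with a median of 0.048, and 0 pairs passed adjustment over the 36 (smallest adjusted p = 0.654, 100000 permutations within genotype). Two-sided p-values under 0.05 before adjustment were found for 2 pairs. Trpm5 and Pou2f3 had r = 0.620 (permutation p = 0.0285, adjusted 0.654) and Spearman's rho of 0.608 (p = 0.0391, adjusted 0.901 by permutation). The relation was of like size within each genotype, at 0.634 in controls and 0.709 in Zfp148gt/+ mice, and was 0.697 without the 2 mice farthest from the median of Trpm5. Il25 and Gfi1b had r = 0.622 (permutation p = 0.0364, adjusted 0.654) and a rho of 0.469 (permutation p = 0.140), and this fell to 0.362 without the 2 mice farthest from the median of Il25, so that it rested in part on mice 783 and 895. Il25 and Sucnr1 had r = 0.486, which was -0.048 without the same 2 mice. The lowest correlation was that of Dclk1 with Hpgds at -0.451.

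**Figure D4:**
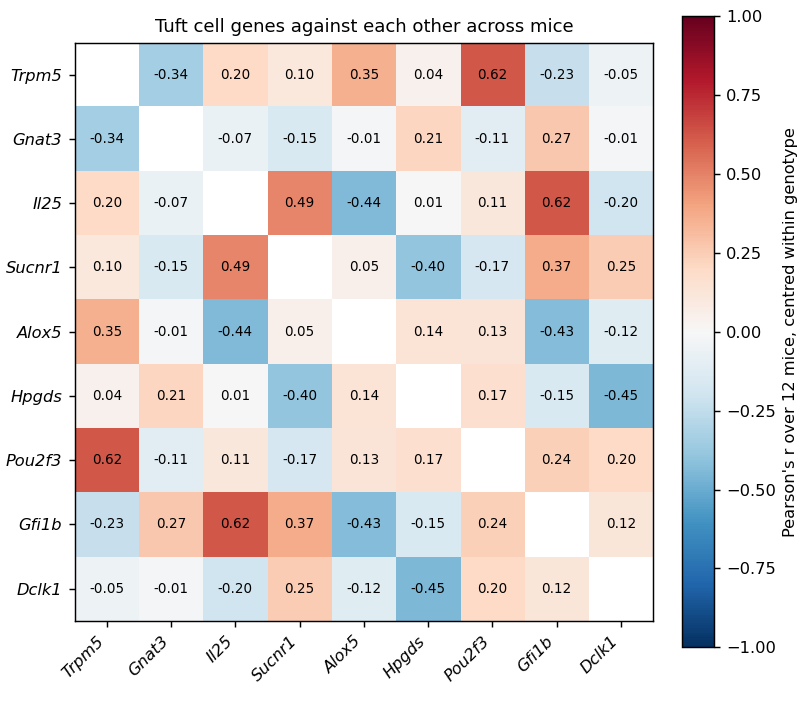
Pearson correlation of each pair of the 9 tuft cell genes over 12 mice after centring within genotype, from blue (negative) to red (positive). The 2 highest of the 36 pairs are Il25 with Gfi1b (0.62) and Trpm5 with Pou2f3 (0.62), and neither passed adjustment.

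**Figure D5:**
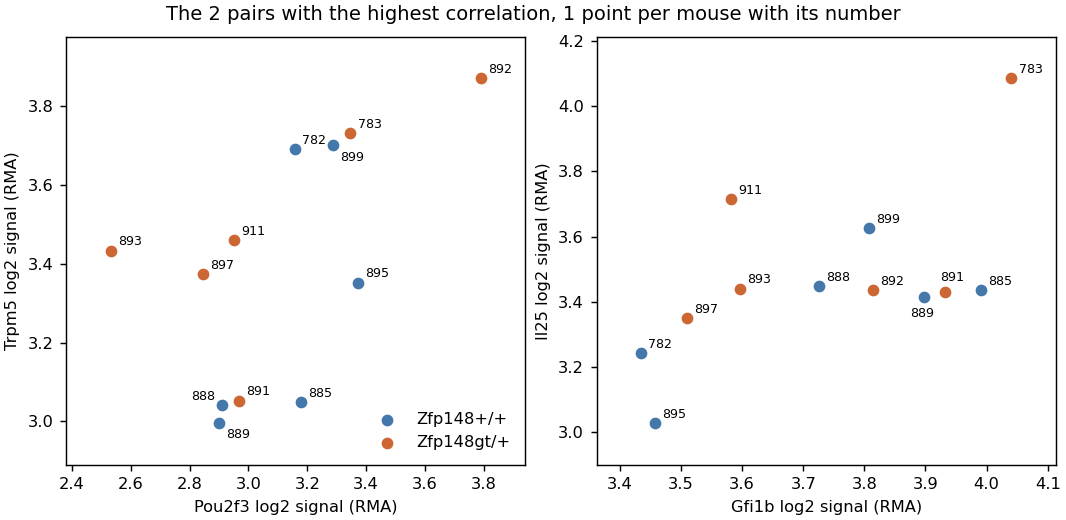
Log2 signal (RMA) of Trpm5 against Pou2f3 and of Il25 against Gfi1b, with 1 point per mouse labelled by its number, controls in blue and Zfp148gt/+ mice in orange. Mouse 892 is at the upper end of the first pair and mouse 783 at that of the second.

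To describe which genes varied most like the tuft cell genes, the 5 genes above the receptor limit were turned into z scores and averaged for each mouse, and this score was correlated with 12689 other named genes above the limit over 12 mice, centred within genotype. The score was highest in Zfp148gt/+ mouse 783 (0.94), control 899 (0.83) and Zfp148gt/+ mouse 892 (0.74), and lowest in Zfp148gt/+ mouse 893 (-0.66) and control 888 (-0.47). The most alike was Ang4, an antimicrobial ribonuclease of Paneth cells, at r = 0.964. It had log2 signals of 11.58, 11.42 and 11.16 in the same 3 top mice, 9.39 to 10.40 in the other 9, and its lowest value in mouse 893. The mean of the 8 Paneth cell genes listed was 10.92, 10.87 and 11.13 in these 3 mice and 10.25 to 10.82 in the other 9. It holds Ang4 itself, which was picked by its likeness to the score, so it is not separate from the Ang4 values. A mean without Ang4 was not taken. Lyz1 and Defa24, the brightest genes on that list, did not set these 3 mice apart from the other 9. In mouse 897 they had log2 signals of 12.96 and 12.59, against 12.85 and 12.53 in top mouse 899. The part of Paneth cells in the score was not tested. Next came 4930447N08Rik (0.936), Stxbp6 (0.861), Slc25a38 (0.848), Ndufab1 (0.845), Gm21188 (0.844), Gas1 (0.829), Wwp2 (0.828), Hmx2 (0.819) and Kitl (0.808), the ligand of Kit. These are the upper end of many correlations over few mice, all points share arrays and normalization, and 5.26% of the genes compared (668) had an r over 0.5, with a median over all of -0.014.

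Hmx2, a homeobox factor found in tuft cells, stood 9th of 12689 in this order and was on the list of further tuft cell genes. Of the 44 such genes above the receptor limit, 8 had an r over 0.5 with the score, namely Hmx2, the actin regulator Avil (0.746), Sh2d7 (0.660), Plcb2 (0.654), the sialic acid receptor Siglecf (0.592), Rgs13 (0.586), the short-chain fatty acid receptor Ffar3 (0.567) and the keratin Krt23 (0.514). Of all genes compared 5.26% had an r over 0.5. The median over the 44 was 0.146, and 30 of them were positive. The lowest were Ptpn6 (-0.65), at rank 12519 of 12689, and Itpr3 (-0.325). The 3 top mice belonged to both genotypes, and the score, being centred within genotype, holds no difference between the genotypes.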

How the data were processed

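Crypt-enriched tissue of 12 mice was measured on 1 array each, and the labels give each mouse's genotype and number. The authors normalized the arrays by RMA in Affymetrix Expression Console and deposited log2 signal, 1 value per transcript cluster and mouse. That the values are in log2 was read from their span, 0.85 to 13.24. Software version, library files and genome build were not given in the sources used here. Symbols came from the array annotation, in which 23521 of 33793 clusters had 1 symbol, 1820 several and 8452 none, and the gene IDs of 23328 named clusters matched a RefSeq table of GRCm38.p6. Promoters were taken from RefSeq on the same build.

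Genotypes were compared on all clusters, with no filter and no covariate, by limma (version 3.58.1, lmFit and eBayes, under R 4.3.3), which the methods name along with its adjustment. The fit was tested on simulated data. For single values an exact permutation test ran over all splits into 6 and 6 mice. Other steps used Python 3.11.15, pandas 2.3.3 and scipy 1.17.1. Precision depends on the number of mice, and the p-values of the genotype comparison set its difference against the spread between them. The controls were littermates by the methods, but pairs are not given and the mice were treated as independent.

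The genes and lists were chosen with earlier results of these data known. Named were the 10 genes, in each group of further tuft cell genes and in the type 2 circuit those with an unadjusted p under 0.05 or else the 2 of smallest p, in each other cell type list the 2 brightest and those with an unadjusted p under 0.05, and the 10 genes most alike. Genes outside this rule (Plcb2, Itpr3, Mcpt1, Il5, Il13, Vmn2r26, and the further tuft cell genes given for their brightness, their spread or their likeness to the score) were named after their values were seen. The alternatives were median centring, quantile normalization, a filter on dim clusters, trend and robust options of eBayes, weighted arrays, averaging all clusters of a gene, covariates for stromal, villus and leukocyte genes and for the interquartile range of the array, the methods' t-test, the linear scale, adjustment over named clusters, and leaving out mice.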

Additional observations from a re-analysis of the deposited data

Results flagged for a closer look

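The 9 tuft cell genes and 12 further tuft and type 2 genes named by rule were examined for a mouse that stands apart, by the gap of the highest or lowest mouse to its neighbour as a share of the range of its group. Of the 42 groups 4 were marked, and chance marks about 1 in 20. Gnat3 stood at 4.40 in control mouse 889, with a gap of 0.693 of the range of the controls. Alox5ap stood at 6.50 in control mouse 895, with a gap of 0.627 of the range. In Zfp148gt/+ mouse 893, Ly6g6f stood at 3.34 (0.651 of the range) and Il4 at 2.09 (0.637), the latter below the receptor limit. No explanation was tested for these values.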

How the results depend on the processing

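None of the 9 tuft cell genes and none of the 56 further tuft cell genes was called under any alternative, and over all clusters the count was 0 to 1 when each mouse was left out, the 1 being found without control mouse 885. For 21 named genes the 14 other alternatives gave 289 log2 fold changes, of which 277 kept their sign and 12 turned. Pou2f3 turned to 0.20 with the stromal covariate. Gfi1b turned to -0.13 with the interquartile range covariate, -0.0166 after median centring and -0.0892 without mice 782 and 783. Alox5 turned to 0.0411 on the linear scale, 0.0747 without mice 782 and 783 and 0.0719 after quantile normalization. Hmx3 turned to -0.0557 with the interquartile range and -0.0187 with the stromal covariate, Ptges2 to 0.30 with the interquartile range covariate, and Espn to 0.0024 with that covariate and 0.0171 after quantile normalization. With each mouse left out in turn, the ranges that crossed 0 were -0.21 to 0.0461 for Pou2f3, -0.0324 to 0.0809 for Gfi1b, -0.20 to 0.10 for Alox5, -0.27 to 0.27 for Gnat3, -0.16 to 0.0242 for Runx1 and -0.0235 to 0.11 for Hmx3. Other values kept their sign but moved by over 1.5 times when 1 mouse was left out: Trpm5 to 0.11 without 892 (0.12 without 889), Hpgds to -0.14 and Fyb to -0.14 without 891, Ptges2 to -0.17 without 892, Alox5ap to -0.26 without 893, -0.28 without 895 and -0.75 without 891, Il4ra to -0.31 without 899, Tslp to 0.26 without 893 and Clca1 to -0.28 without 897, besides Dclk1, Il25 and Sucnr1 as given with their values. The stromal covariate moved Gnat3 to -0.71, Trpm5 to 0.40, Hpgds to -0.09 and Ly6g6f to -0.77. The interquartile range covariate moved Gnat3 to -0.90, Dclk1 to -0.55, Trpm5 to 0.34, Il25 to 0.35, Sucnr1 to 0.14, Hpgds to -0.11, Fyb to -0.13 and Ly6g6f to -0.78, and Gnat3 was -0.47 on the linear scale. The interquartile range was mostly narrower in Zfp148gt/+ arrays, so that covariate was not separate from genotype. Without mice 782 and 783, Il25 was 0.08, Sucnr1 0.11 and Tas1r3 0.17. Genes within 0.1 of 0 moved by such factors under many settings. The cause of these changes was not tested. Near the receptor limit a loss of signal cannot be measured, which bears on Dclk1, Hpgds, Sucnr1 and Gnat3. No paired analysis was possible because the labels give each mouse a number that no mouse of the other genotype shares.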
